A study of Mus musculus with 30 samples.

Results

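White fat was compared between male C57BL/6J mice injected with the adeno-associated virus AAV8-F11, which carries the F11 gene, and mice injected with AAV8-GFP, which carries green fluorescent protein. The comparison used 14 of the 16 adipose libraries, 7 per vector, out of 29 libraries in the count table, which also held 7 F11 and 6 GFP heart libraries. For 7 weeks the food of both groups was rich in fat, and both received l-NAME, which blocks nitric oxide synthases. Tissue was taken at 15 weeks of age. There was no group on another diet and no group without a vector, so every contrast is between 2 vectors on the same diet. Separate mice for each library are not stated in the labels, so a p-value here reflects spread between samples that may in part be technical.

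The libraries were chosen by levels measured in them. G-L140, labelled GFP, was left out for heart RNA, with 4126 CPM (counts scaled to a library total of 1000000) of the heart myosin gene Myh6, and G-L142, labelled F11, for epididymal RNA, with 6003 CPM of the epididymal gene Gpx5. Just inside the rule, the highest Myh6 level was 82.87 CPM, in GFP library G-L138, and the highest Gpx5 level was 12.88 CPM, in F11 library G-L143. These levels made the choice and were not tested. The F11 libraries held 16.76 to 26.33 and the GFP libraries 16.83 to 22.53 estimated counts, in units of 1000000, so that the 3 counts that a count of 0 allows correspond to 0.114 to 0.179 CPM.

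F11 encodes coagulation factor XI, the precursor of a plasma protease that hepatocytes secrete and that activates factor IX in the clotting cascade. AAV8 given to mice mainly transduces hepatocytes, and the protein then reaches other organs through the blood. White fat consists of lipid-storing adipocytes among vessels, fibroblasts and macrophages, and in obesity macrophages that take up lipid accumulate in it. In its vessels, mural cells (pericytes and smooth muscle) receive nitric oxide from the endothelium through soluble guanylate cyclase, an enzyme that makes cyclic GMP. Liver F11 and factor XI protein were not measured here.

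Markers of fat were abundant in all 14 libraries. Adipoq, which encodes the adipocyte hormone adiponectin, had a lowest, median and highest level of 929.6, 2545 and 3024 CPM in F11 libraries, against 1266, 1807 and 2826 CPM in GFP libraries. Lep, which encodes leptin, had 1592, 3478 and 4638 CPM in F11 libraries and 2800.4, 4068 and 4723 CPM in GFP libraries. Both ranges overlapped. RNA of other organs was also present, at levels that differed between libraries. In GFP library G-L136 the albumin transcript Alb of hepatocytes reached 3386 CPM, above the 2826 CPM of Adipoq there. Hepatocyte RNA had no part in the choice of libraries. None of the 20 hepatocyte genes was at 0 throughout a group, and their summed level ran from 1609 to 12741 CPM in F11 libraries and from 1779 to 13193 CPM in GFP libraries. The 14 heart muscle genes summed to 34.94 to 77.39 CPM in F11 libraries, where 1 of them was at 0 throughout, and to 45.02 to 190.9 CPM in GFP libraries.

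The transcript carried by the vector was examined first. F11 (ENSMUSG00000031645, GRCm38 chr8:45241174-45262031, minus strand) had 5.05, 7.66, 5.48, 9.15, 16.1, 0.515 and 2.17 CPM in F11 libraries G-L141 and G-L143 to G-L148, in that order. In GFP libraries G-L133 to G-L139 it had 0.178, 0.107, 0.62, 4.7, 2.28, 0.332 and 0.651 CPM. Of the 7 F11 libraries, 5 lay above every GFP library, G-L148 lay above 5 of the 7 GFP libraries, and G-L147 lay below the GFP median. The means were 6.59 ± 5.13 CPM in F11 and 1.27 ± 1.68 CPM in GFP libraries (SD, n = 7 each), a difference of 5.32 CPM with p = 0.00991 (exact permutation of the labels, two-sided, 3432 splits). The edgeR fit gave a log2 fold change of 2.38 (SE 0.82), with an unadjusted p of 0.0113 that did not survive adjustment over all genes (adjusted p = 0.815).

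Since hepatocyte transcripts differed widely between libraries, F11 was also set against Alb, the albumin transcript of hepatocytes. Alb ranged from 7.46 to 3211 CPM in F11 libraries and from 34.3 to 3386 CPM in GFP libraries. Per 100 Alb counts, the GFP libraries held 0.139 to 0.52 F11 counts across that range of Alb levels. The F11 libraries held 67.8, 17.4, 1.82, 0.285, 0.894, 0.14 and 5.46 F11 counts per 100 Alb counts, so 5 of 7 lay above all GFP libraries. F11 library G-L141 had 103 F11 counts beside 152 Alb counts, while F11 library G-L145 had 240 beside 84172. F11 library G-L147, with 10 F11 and 7128 Alb counts, lay at the GFP ratio. The log2 ratio, with 0.5 added to each count, averaged -5.38 ± 3.18 in F11 and -8.33 ± 0.70 in GFP libraries (exact permutation p = 0.0326, two-sided).

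**Figure D1:**
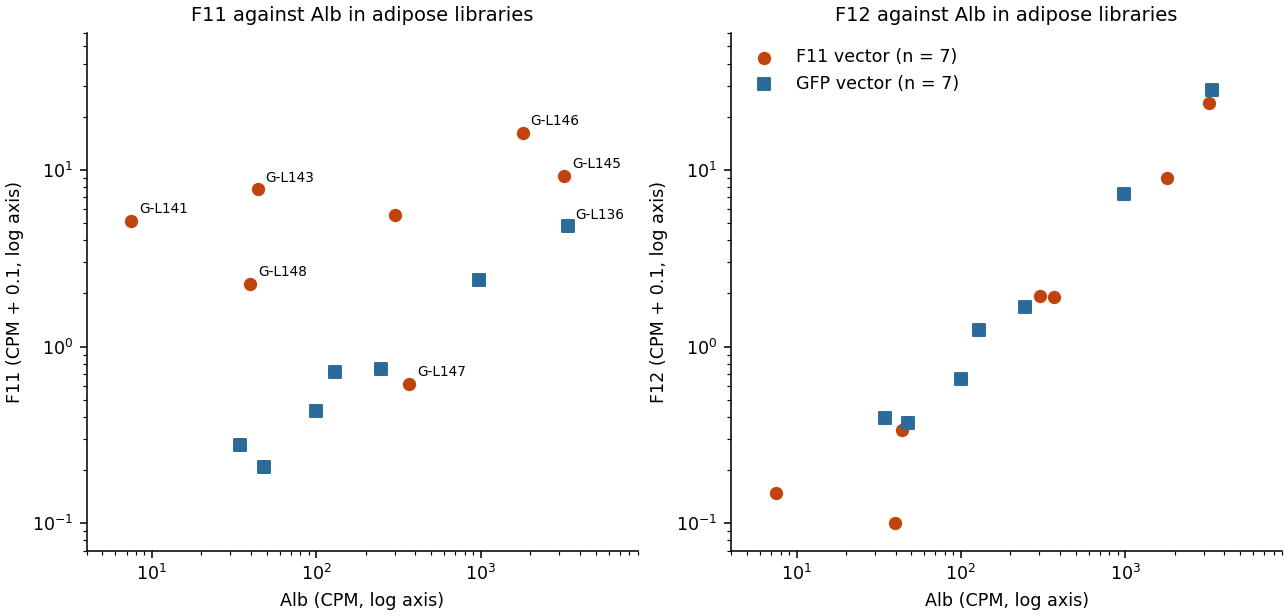
F11 against Alb, both in CPM on log axes, with 1 point per adipose library (7 F11, 7 GFP). The GFP points hold 0.139 to 0.52 F11 counts per 100 Alb counts, and the F11 points lie above them except G-L145 and G-L147, which lie within the GFP ratios.

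Other hepatocyte genes of the contact system, which the vector does not carry, did not pass the same test. F12, which encodes factor XII, averaged 5.22 ± 8.73 CPM in F11 and 5.61 ± 10.3 CPM in GFP libraries (SD, n = 7 each; exact permutation p = 0.921). Klkb1, which encodes plasma prekallikrein, the paralog of factor XI, averaged 7.63 ± 8.94 CPM in F11 and 6.52 ± 8.91 CPM in GFP libraries (exact permutation p = 0.817). Per 100 Alb counts, F12 had 0 to 0.738 counts in F11 and 0.554 to 0.891 counts in GFP libraries. Of the 33 coagulation and contact system genes tested, F11 had the only unadjusted p under 0.05. Leaving out 1 library at a time gave F11 differences of 3.74 CPM (without F11 library G-L146) to 6.33 CPM (without F11 library G-L147, whose F11 level was the lowest of its group), with exact permutation p-values of 0.0035 to 0.0198. The F11 level of G-L147 does not tell its label from GFP.

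No gene passed the test across the transcriptome. The edgeR quasi-likelihood test called 0 of 15251 genes (0.00%) at an adjusted p under 0.05, with a lowest adjusted p of 0.379. At an unadjusted p under 0.05, 517 genes (3.39%) had higher and 412 (2.70%) lower levels with F11, 929 in all (6.09%), and 47.6% of all fold changes were positive. DESeq2 called 8 genes higher (0.0525%) and 0 lower, namely Setd5, Ric1, Cep250, Baz2b, Apbb2, Kmt2b, Ddx60 and Fryl, and limma voom called 0. The median log2 fold change of all genes was -0.0077. The unadjusted counts rested on single libraries, with 901 higher and 761 lower without F11 library G-L148, 369 and 210 without F11 library G-L144, 783 and 765 without GFP library G-L137, 324 and 231 without GFP library G-L135, and 478 and 265 without GFP library G-L138.

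Genes with completely separate groups were few. All 7 F11 libraries lay above all 7 GFP libraries for 11 genes (0.0721%) and below them for 5 genes (0.0328%). Those above were Kmt2b, Setd5, Baz2b, Cep250, Ric1, Apbb2, Unc5b, Thrap3, Traf7, Olfr1116 and AC154486.3, and those below were Mettl1, Med30, Cd209e, Tmem248 and Sec61b. Without G-L147 the counts were 13 and 5, holding all 11 and all 5, and with all 16 adipose libraries they were 3 and 0.

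Setd5, which encodes a SET-domain chromatin protein, had the lowest p. Its lowest, median and highest levels were 109, 117 and 126 CPM in F11 libraries, against 96.9, 100.1 and 103 CPM in GFP libraries, and the groups did not overlap. Its log2 fold change was 0.22 (SE 0.04, edgeR adjusted p = 0.379). Baz2b, which encodes a bromodomain protein of chromatin remodelling, had 52.4, 57.0 and 63.8 CPM in F11 libraries, against 43.9, 47.2 and 50.4 CPM in GFP libraries. Its log2 fold change was 0.28 (SE 0.05, adjusted p = 0.379 by edgeR). The groups were again separate, with means of 57.5 ± 4.21 CPM in F11 and 47.3 ± 2.0 CPM in GFP libraries (SD, n = 7 each). Apbb2, which encodes an adaptor that binds the amyloid precursor protein, averaged 72.8 ± 4.68 CPM in F11 and 60.1 ± 4.03 CPM in GFP libraries (SD, n = 7 each), and Ric1, which encodes part of an exchange factor for the Golgi GTPase Rab6, averaged 68.0 ± 3.33 and 59.0 ± 1.75 CPM in the same groups (edgeR adjusted p = 0.387 for both).

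Other genes among the lowest p-values differed by little. Fryl, a homolog of the fly gene furry, had 83.7, 94.8 and 102 CPM in F11 libraries, against 70.1, 80.7 and 89.8 CPM in GFP libraries (log2 0.24, SE 0.06, edgeR adjusted p = 0.815). Senp1, a protease that removes SUMO from proteins, averaged 30.3 ± 1.93 CPM in F11 and 26.4 ± 0.845 CPM in GFP libraries. For each of these 6 of 7 F11 libraries lay above every GFP library. Among genes with lower levels, Cops7a, a subunit of the COP9 signalosome, had medians of 35.6 CPM in F11 and 39.9 CPM in GFP libraries (log2 -0.16, SE 0.05). Gorasp1, a Golgi stacking protein, averaged 25.7 ± 1.53 CPM in F11 and 29.1 ± 1.68 CPM in GFP libraries (log2 -0.18). Mettl1, which methylates tRNA, averaged 10.6 ± 0.811 CPM in F11 libraries, below every GFP library. Unc119b, a carrier of lipid-modified proteins, averaged 25.5 ± 0.919 CPM in F11 and 29.0 ± 2.37 CPM in GFP libraries, and Odf3l1 had medians of 3.54 CPM in F11 and 5.17 CPM in GFP libraries.

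Cep250 encodes a protein that links the pair of centrioles in a centrosome. It had 74.6, 76.7 and 86.9 CPM in F11 libraries, against 63.9, 67.0 and 70.1 CPM in GFP libraries, with no overlap (log2 0.22, SE 0.04, edgeR adjusted p = 0.379). No other of the 22 centrosome genes tested separated the groups completely, and 13 of the 22 had positive fold changes. Cep250, Pcm1, Odf2 and Tubgcp6, 4 of the 22 (18.2%), were higher at an unadjusted p under 0.05, against 3.39% of all genes. Leaving out 1 library gave 2 to 5, against 324 to 901 of all genes. The list's median exon length was 9244 bases, and 11 of the 22 lay in the longest decile of genes by exon length. In that decile 10.4% of genes were higher at that level. After a correction for exon length 2 of the 22 were higher and 1 lower at that level, against 383 and 362 of all 15251 genes. The promoter window of Cep250, 300 bases on the plus strand around the RefSeq start (GRCm38.p6, chr2:155956308-155956607), is shown because this gene separated the groups completely. Capitals mark the GC box GGGCGG, the only one of the motifs searched that it holds, on either strand.
Cep250: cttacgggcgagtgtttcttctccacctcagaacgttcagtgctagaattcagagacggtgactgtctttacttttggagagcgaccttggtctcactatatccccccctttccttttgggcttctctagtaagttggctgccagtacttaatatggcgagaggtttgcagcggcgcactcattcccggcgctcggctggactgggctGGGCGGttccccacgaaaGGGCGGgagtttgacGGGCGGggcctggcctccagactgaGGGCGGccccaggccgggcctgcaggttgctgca
It contains 4 GC boxes, 18 CpG sites and 59.3% G and C. Of 32851 such RefSeq windows 35.7% hold a GC box, 37.4% the CCAAT box CCAAT, 13.6% the TATA box TATAAA, 7.15% the E-box CACGTG and 1.79% the cAMP response element TGACGTCA. The median window has 52.7% G and C and 7 CpG sites.

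**Figure D2:**
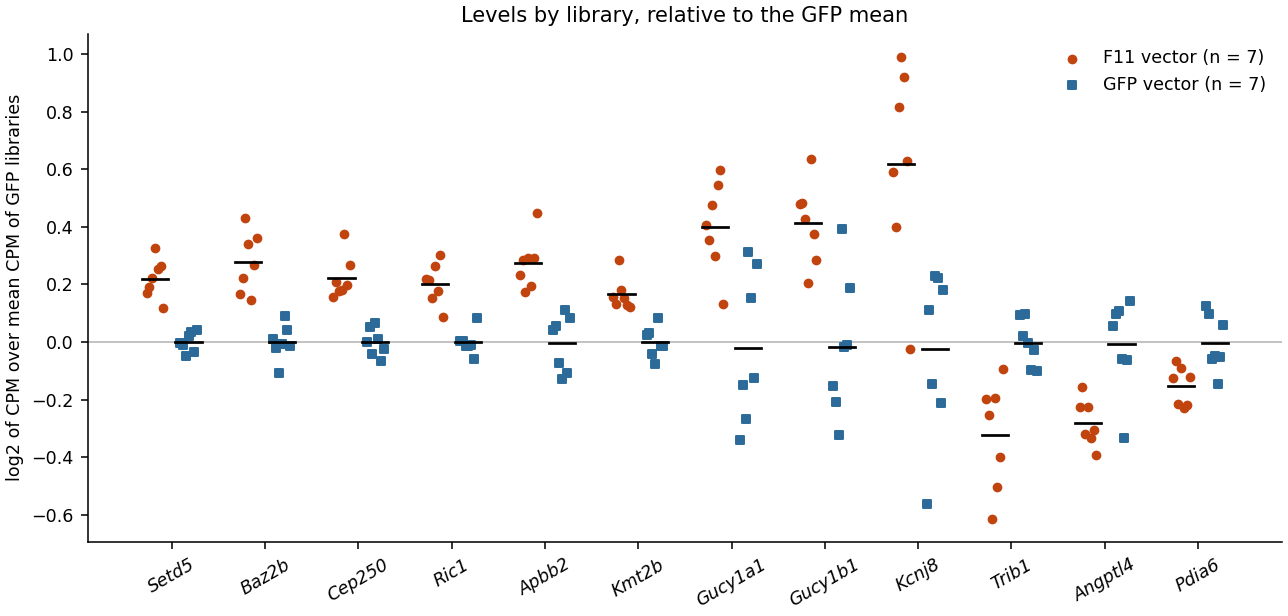
Level of 12 genes in each library, as log2 of its CPM over the mean CPM of the GFP libraries (1 point per library, F11 left of GFP for each gene, n = 7 each, with a bar at the mean). Setd5, Baz2b, Cep250, Ric1, Apbb2 and Kmt2b show no overlap between the vectors, and the guanylate cyclase genes, Kcnj8, Trib1, Angptl4 and Pdia6 overlap.

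Genes of histone lysine modifiers mostly had positive fold changes. Of 40 tested, 35 had positive fold changes, and 12 (30%) were higher at an unadjusted p under 0.05, against 3.39% of all genes, with 0 lower and 0 called after adjustment by edgeR. The median log2 fold change was 0.09. All 5 genes Kmt2a to Kmt2e were among the 12. Kmt2b, which encodes a histone H3 lysine 4 methyltransferase, had 72.1, 73.7 and 80.7 CPM in F11 libraries, against 62.9, 65.7 and 70.2 CPM in GFP libraries (log2 0.17, SE 0.04, adjusted p = 0.815 by edgeR). Kmt2d, another such enzyme, averaged 196 ± 14.9 CPM in F11 and 175 ± 12.5 CPM in GFP libraries, and Ncor1, a corepressor that binds histone deacetylases, averaged 215 ± 22.0 and 189 ± 17 CPM in the same groups. The summed level of the list was 2991 to 3195 CPM in F11 and 2742 to 2983 CPM in GFP libraries, without overlap. Leaving out 1 library at a time gave 9 to 15 members at an unadjusted p under 0.05, and putting back the GFP library with heart RNA, G-L140, gave 6. Over all genes, the counts higher at that level were 324 to 901 and 331 in those fits, against 517 in the 14 libraries.

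These genes have a long exon length, and the fold change of all genes varied with that length. Exon length here counts the bases covered by all annotated exons of a gene together, which can exceed the length of any transcript. The median exon length was 10020 bases in the list and 4333 bases in all genes with a length, and 20 of the 40 lay in the longest decile. The share of genes higher with F11 at an unadjusted p under 0.05 was 0.997% in the shortest decile and 10.4% in the longest, and the share lower was 3.59% in the shortest and 1.73% in the longest. The median log2 fold change was -0.0247 in the shortest decile and 0.0391 in the longest. Relative to the GFP mean of each gene, the median of the longest decile minus that of the shortest was -0.0367 to 0.195 (log2) in F11 libraries and -0.163 to 0.107 in GFP libraries, so the vectors overlapped. When each library's length trend was removed, 4 of the 40 genes remained higher at an unadjusted p under 0.05, against 383 of all 15251 genes. The list's median was then 0.06. With that correction Setd5 had a log2 fold change of 0.16 (SE 0.04), Kmt2b of 0.14 (SE 0.04) and Cep250 of 0.19 (SE 0.05). Kmt2c, Kmt2d and Kmt2e were no longer at an unadjusted p under 0.05 (log2 0.05, 0.10 and 0.10, edgeR unadjusted p = 0.332, 0.127 and 0.0531), and the lowest adjusted p over all genes was 0.907.

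**Figure D3:**
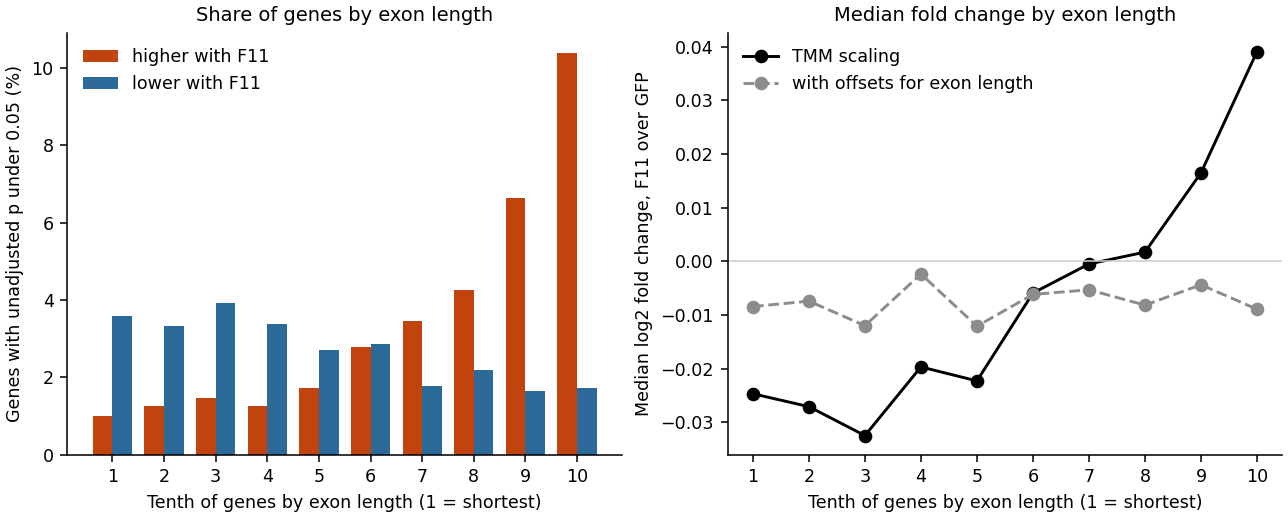
Exon length and the F11 over GFP contrast, by deciles of genes ordered by exon length from short to long. The share of genes higher with F11 at an unadjusted p under 0.05 is 0.997% in the shortest and 10.4% in the longest decile, and the share lower is 3.59% and 1.73% in those deciles.

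The subunits of soluble guanylate cyclase, the nitric oxide receptor, all had higher mean levels with F11. Gucy1b1, the beta subunit, had 20.1, 23.4 and 27.1 CPM in F11 libraries, against 14, 17.3 and 22.9 CPM in GFP libraries. Its log2 fold change was 0.42 (SE 0.10, unadjusted p = 0.00121, edgeR adjusted p = 0.815). Above the GFP median lay 7 of 7 F11 libraries, and 4 exceeded every GFP library. Gucy1a1, the main alpha subunit, had 38.8, 46.9 and 53.5 CPM in F11 libraries, against 28.0, 32.4 and 43.9 CPM in GFP libraries (log2 0.41, SE 0.11, adjusted p = 0.815 by edgeR). Gucy1a2, a second alpha subunit, averaged 1.46 ± 0.367 CPM in F11 and 0.968 ± 0.187 CPM in GFP libraries (log2 0.59, SE 0.18). For each alpha subunit 5 F11 libraries lay above every GFP library.

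Of 15 genes of nitric oxide reception and cyclic GMP signalling, 13 had positive fold changes (median log2 0.14), and these 3 subunits were the only ones at an unadjusted p under 0.05, 20% of the list against 3.39% of all genes. Prkg1, the cyclic GMP-dependent kinase, averaged 7.05 CPM in F11 and 6.08 CPM in GFP libraries, and Pde5a, the phosphodiesterase that degrades cyclic GMP, averaged 10.6 and 10.2 CPM in the same groups, both with an unadjusted p over 0.1 by edgeR. The 3 subunits kept log2 fold changes of 0.43, 0.39 and 0.58 (Gucy1b1, Gucy1a1, Gucy1a2) with the exon length correction. With the clock phase as a covariate the log2 values were 0.37, 0.31 and 0.63 in that order, and 9 of the 15 genes were positive (median 0.06). The clock phase was a score, the log2 level of the clock gene Dbp minus that of Arntl in the same library. It was not a recorded hour. Dbp had a higher mean level with F11, so this covariate can take up part of the vector contrast.

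Gucy1b1 (GRCm38 chr3:82032006-82074689) and Gucy1a1 (chr3:82092427-82145789) lie next to each other on the minus strand. Their promoter windows are shown because the pair differed in the same direction by a similar amount. Capitals mark GC boxes (GGGCGG) and CCAAT boxes (CCAAT, read as ATTGG on the printed strand), found on either strand. The windows are RefSeq's, GRCm38.p6, minus strand, at chr3:82145601-82145900 for Gucy1a1 and chr3:82074662-82074961 for Gucy1b1.
Gucy1a1: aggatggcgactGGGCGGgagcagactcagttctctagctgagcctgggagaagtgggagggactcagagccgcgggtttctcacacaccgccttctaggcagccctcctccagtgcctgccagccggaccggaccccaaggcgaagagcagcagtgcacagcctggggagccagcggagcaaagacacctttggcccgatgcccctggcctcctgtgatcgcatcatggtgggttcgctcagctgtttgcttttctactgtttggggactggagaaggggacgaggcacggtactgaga
Gucy1b1: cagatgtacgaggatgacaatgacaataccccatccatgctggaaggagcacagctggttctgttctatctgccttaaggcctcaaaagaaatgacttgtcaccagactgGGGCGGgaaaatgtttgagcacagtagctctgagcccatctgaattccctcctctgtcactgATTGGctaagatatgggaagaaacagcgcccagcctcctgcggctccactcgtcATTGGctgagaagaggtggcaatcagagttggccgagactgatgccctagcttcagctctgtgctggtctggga
The Gucy1a1 window holds 1 GC box, 14 CpG sites and 62.3% G and C, and is the first of 2 windows listed for the gene. The Gucy1b1 window holds 1 GC box, 2 CCAAT boxes, 6 CpG sites and 52.3% G and C. Neither holds the E-box, the cAMP response element or the TATA box. A match describes letters only and shows no bound factor.

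Among mural and endothelial markers the largest fold change was that of a pericyte gene. Kcnj8, which encodes the pore subunit of the ATP-sensitive potassium channel of vascular mural cells, had 19.2, 30.3 and 38.9 CPM in F11 libraries, against 13.3, 21.1 and 23.0 CPM in GFP libraries. Its log2 fold change was 0.65 (SE 0.16, unadjusted p = 0.00102, edgeR adjusted p = 0.815), and 6 of 7 F11 libraries lay above every GFP library. Abcc9, which encodes the regulatory subunit of the same channel and lies beside Kcnj8 on chromosome 6, had 74.7, 99.3 and 127 CPM in F11 libraries, against 54.7, 67.9 and 96.5 CPM in GFP libraries (log2 0.46, SE 0.14, adjusted p = 0.815 by edgeR). With 1 surrogate variable in the model Abcc9 was called (log2 0.44, edgeR adjusted p = 0.023), and with the clock phase as a covariate the log2 values were 0.24 for Abcc9 and 0.39 for Kcnj8, with neither called. Notch3, a receptor that maintains mural cells, averaged 104 ± 9.25 CPM in F11 and 85.5 ± 12.1 CPM in GFP libraries (log2 0.28, SE 0.09).

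Of 16 mural markers 12 had positive fold changes (median log2 0.13), and these 3 were the ones at an unadjusted p under 0.05 (18.8% against 3.39% of all genes). The pericyte genes Rgs5 and Pdgfrb had values of 0.32 and 0.15, without reaching that level. Across the 16 markers the log2 values ran from -0.60 to 0.65, with 4 negative and 0 lower at that level. The contractile smooth muscle genes gave values of either sign. Acta2, smooth muscle actin, averaged 166 ± 32.7 CPM in F11 and 187 ± 39.4 CPM in GFP libraries, and Myh11, smooth muscle myosin, averaged 81.6 ± 15.8 and 76.0 ± 10.9 CPM in the same groups. The summed level of the mural list overlapped, at 1404 to 2190.3 CPM in F11 and 1401 to 1948 CPM in GFP libraries. Adding the clock phase as a covariate left 9 of the 16 positive (median 0.07). In bulk tissue, more cells of a type and more RNA per cell cannot be told apart.

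Among 20 endothelial markers the fold change was positive for 17 (median log2 0.13), and 1 (5%) was higher at an unadjusted p under 0.05, near the 3.39% of all genes. Adding the clock phase as a covariate left 5 of the 20 positive (median -0.03). That gene was Tek, the angiopoietin receptor, with 78.2 ± 7.05 CPM in F11 and 69.4 ± 5.13 CPM in GFP libraries (log2 0.17, edgeR adjusted p = 0.815). Cdh5, the cadherin of endothelial junctions, averaged 437 ± 83.1 CPM in F11 and 386 ± 65.7 CPM in GFP libraries. For Cdh5 the SD within each group exceeded the difference between the groups. Of 23 angiogenic ligands and receptors, 19 had positive fold changes and 3 (13%, against 3.39% of all genes), Tek, Nrp1 and Angptl2, were higher at an unadjusted p under 0.05, with 1 left without any one of GFP libraries G-L135 and G-L138 and F11 library G-L141, with F11 library G-L142 put back, or with exon length offsets. Vegfa, the main endothelial growth factor, ranged from 102 to 412 CPM in F11 and from 106 to 296 CPM in GFP libraries.

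**Figure D4:**
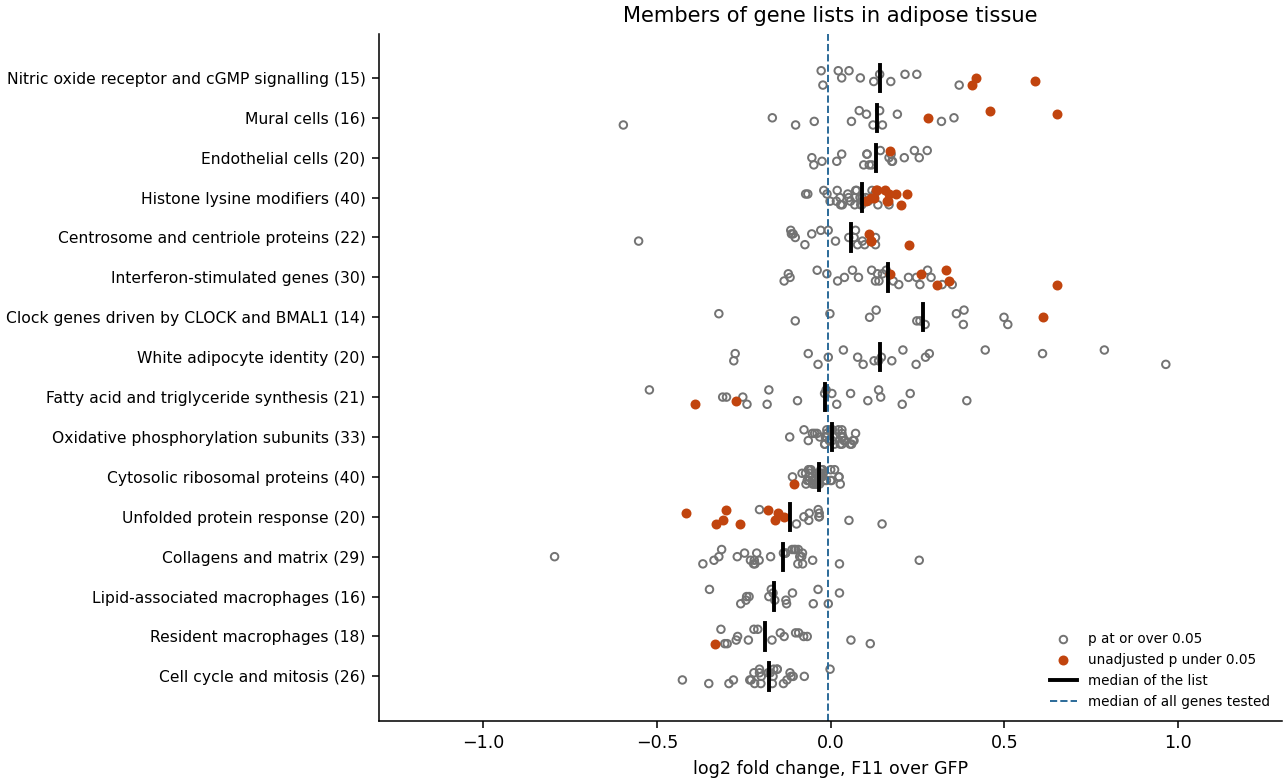
Log2 fold change of F11 over GFP for each tested member of the gene lists (1 point per gene), with the list median. Histone lysine modifiers and interferon-stimulated genes lie mostly above 0 and unfolded protein response genes mostly below 0, with medians of 0.09, 0.17 and -0.12.

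Chaperones of the endoplasmic reticulum had lower mean levels with F11. The unfolded protein response raises these chaperones when unfolded protein accumulates in that compartment. Of 20 such genes 18 had negative fold changes (median log2 -0.12), and 9 (45%) were lower at an unadjusted p under 0.05, against 2.70% of all genes. Hspa5, the chaperone BiP, had 411, 499 and 644 CPM in F11 libraries, against 485, 674 and 803 CPM in GFP libraries (log2 -0.33, SE 0.12, unadjusted p = 0.0166, edgeR adjusted p = 0.815). The ranges overlapped, with 3 F11 libraries below every GFP library. Pdia6, a disulfide isomerase, averaged 197 ± 9.14 CPM in F11 and 218 ± 14.9 CPM in GFP libraries (log2 -0.15). Sdf2l1, Manf, Creld2, Dnajb9, Dnajc3, Hyou1 and Hsp90b1 made up the rest of the 9, with log2 values of -0.42 to -0.14.

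Atf4, a transcription factor made when translation is held back, averaged 94.3 ± 12.8 CPM in F11 and 98.4 ± 7.41 CPM in GFP libraries, and its target Trib3 averaged 7.35 ± 0.689 and 7.53 ± 1.3 CPM in the same groups. Xbp1, the transcription factor that the sensor IRE1 activates by splicing, averaged 149 ± 22.9 CPM in F11 and 152 ± 6.42 CPM in GFP libraries. Sec61b, a subunit of the channel through which proteins enter the endoplasmic reticulum, was 1 of the 5 genes with every F11 library below every GFP library, at 27.3 to 31.9 CPM in F11 and 32.2 to 36.7 CPM in GFP libraries. With the mixed F11 library G-L142 put back, 0 members were at an unadjusted p under 0.05, the median was -0.04 and the log2 value of Pdia6 was 0.02. Leaving out 1 of the 14 libraries gave 5 to 11 members at that level, with 5 without GFP library G-L133, F11 library G-L144 or F11 library G-L146. Putting back GFP library G-L140 gave 5. With the clock phase as a covariate 3 were at that level, the median was -0.10 and the log2 value of Hspa5 was -0.12, while the count of all genes lower at that level was 846, against 412 without the covariate.

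Interferon-stimulated genes, which cells raise in antiviral defence, had positive fold changes in 25 of 30 cases (median log2 0.17). At an unadjusted p under 0.05, 6 (20%) were higher, against 3.39% of all genes, and 0 were lower. That count was 1 with the mixed F11 library G-L142 put back, 1 with all 16 adipose libraries, 3 with the lipid-associated macrophage level as a covariate and 1 with the clock phase, where the median was 0.03. Ddx60, an antiviral helicase gene outside this list, had 10.1, 12.4 and 13.3 CPM in F11 libraries, against 8.15, 9.08 and 10.4 CPM in GFP libraries (log2 0.40, SE 0.08, edgeR adjusted p = 0.65), and 5 F11 libraries lay above every GFP library. DESeq2 called it at an adjusted p of 0.0138. Ifih1, a sensor of double-stranded RNA, averaged 38 ± 2.96 CPM in F11 and 33.7 ± 2.25 CPM in GFP libraries (log2 0.17), and Ifit2, which inhibits translation of viral RNA, averaged 29.1 ± 6.4 and 23.0 ± 2.58 CPM in the same groups (log2 0.34). Leaving out 1 library gave 2 to 7 members at that level, with 2 or 3 without any one of GFP libraries G-L133, G-L135, G-L138 and G-L139 and F11 libraries G-L143 to G-L146.

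Lipid handling genes gave values of either sign, and those with the lowest p were lower with F11. Angptl4, a secreted inhibitor of lipoprotein lipase, had 551, 585 and 649 CPM in F11 libraries, against 574, 751 and 799 CPM in GFP libraries (log2 -0.28, SE 0.07, unadjusted p = 0.00167, edgeR adjusted p = 0.815). All 7 F11 libraries lay below the GFP median and 2 below every GFP library. Trib1, a pseudokinase linked to plasma lipids, had 22.0, 28.2 and 31.6 CPM in F11 libraries, against 31.5, 33.6 and 36.1 CPM in GFP libraries (log2 -0.31, SE 0.08, adjusted p = 0.815 by edgeR). A single F11 library reached the lowest GFP level. The log2 value of Trib1 was -0.20 with F11 library G-L142 put back and -0.13 with all 16 adipose libraries (edgeR unadjusted p = 0.0972 and 0.351). Nnmt, which methylates nicotinamide and is abundant in fat, ranged from 121 to 159.7 CPM in F11 and from 130.2 to 178 CPM in GFP libraries (log2 -0.27). Angptl4, Trib1 and Nnmt were named among the 10 genes with the lowest p on the lower side, so their direction was part of the choice. None of them came from the lists of lipid synthesis or lipolysis. Angptl4 also had the lowest p of the adipokine list and of the glucocorticoid receptor targets.

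Among 21 genes of fatty acid and triglyceride synthesis, 12 had negative fold changes and 2 (9.52%) were lower at an unadjusted p under 0.05, against 2.70% of all genes. These were Acss2 and Acly, which make acetyl-CoA, at 99.4 ± 20.2 and 263 CPM in F11 libraries, against 130.3 ± 26.4 and 317 CPM in GFP libraries. Fasn, fatty acid synthase, averaged 1548 CPM in F11 and 1905 CPM in GFP libraries (unadjusted p = 0.154 by edgeR). Scd1, the stearoyl-CoA desaturase, lay the other way, at 20007 CPM in F11 and 17060.2 CPM in GFP libraries. Leaving out 1 library gave 0 to 6 members at that level, with 6 without GFP library G-L137 and 0 without GFP library G-L134 or F11 library G-L144. Under the clock phase covariate all 21 were negative (median -0.20, against -0.02 without it) and 3 were at that level. Abhd5, the coactivator of the triglyceride lipase ATGL, had a log2 fold change of -0.19, with overlapping groups.

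The fold change was positive for 15 of 20 white adipocyte identity genes (median log2 0.14), with 0 at an unadjusted p under 0.05 in either direction. The signs turned with the covariates, to 2 of 20 positive with the clock phase (median -0.13) and 9 of 20 with the lipid-associated macrophage level (median -0.03). Prdm16 and Ebf2, transcription factors of beige and brown adipocytes, were at 11.9 ± 1.91 and 33.4 ± 8.55 CPM in F11 libraries, against 9.31 ± 1.28 and 25.4 ± 5.34 CPM in GFP libraries (log2 0.35 and 0.40, both at an unadjusted p under 0.05 by edgeR). Ucp1, the uncoupling protein of brown fat, had a median of 0.114 CPM in F11 and 0.166 CPM in GFP libraries, near the counting limit, and did not pass the filter. Of 13 thermogenic genes tested 9 had negative fold changes (median log2 -0.09). Prdm16 and Ebf2 were the 2 (15.4%, against 3.39% of all genes) higher at an unadjusted p under 0.05, with 0 lower. With GFP library G-L140 put back 0 were higher and 1 lower at that level (median -0.37). With all 16 adipose libraries 1 was higher and 2 were lower (median -0.49). Among insulin signalling genes, 13 of 18 had positive fold changes, with 0 at an unadjusted p under 0.05, and 7 were positive under the clock phase covariate.

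The main axis of variation between libraries did not separate the vectors. A multidimensional scaling of the 14 libraries used only the genes that varied most between them. Its first axis held 61.1% of the variance of those genes and the second 10.9%. F11 libraries ran from -1.44 to 2.05 on the first axis and GFP libraries from -1.33 to 2.01. F11 libraries G-L145 and G-L146 and GFP libraries G-L136 and G-L137 lay highest. Those 4 had the highest hepatocyte levels, with 8.112, 6.928, 8.277 and 6.345 as the mean log2(CPM + 1) of that list, against 1.757 in F11 library G-L141, the lowest. Gpnmb, a glycoprotein of lipid-associated macrophages, ranged from 164 to 3239 CPM in F11 and from 276 to 2366 CPM in GFP libraries.

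**Figure D5:**
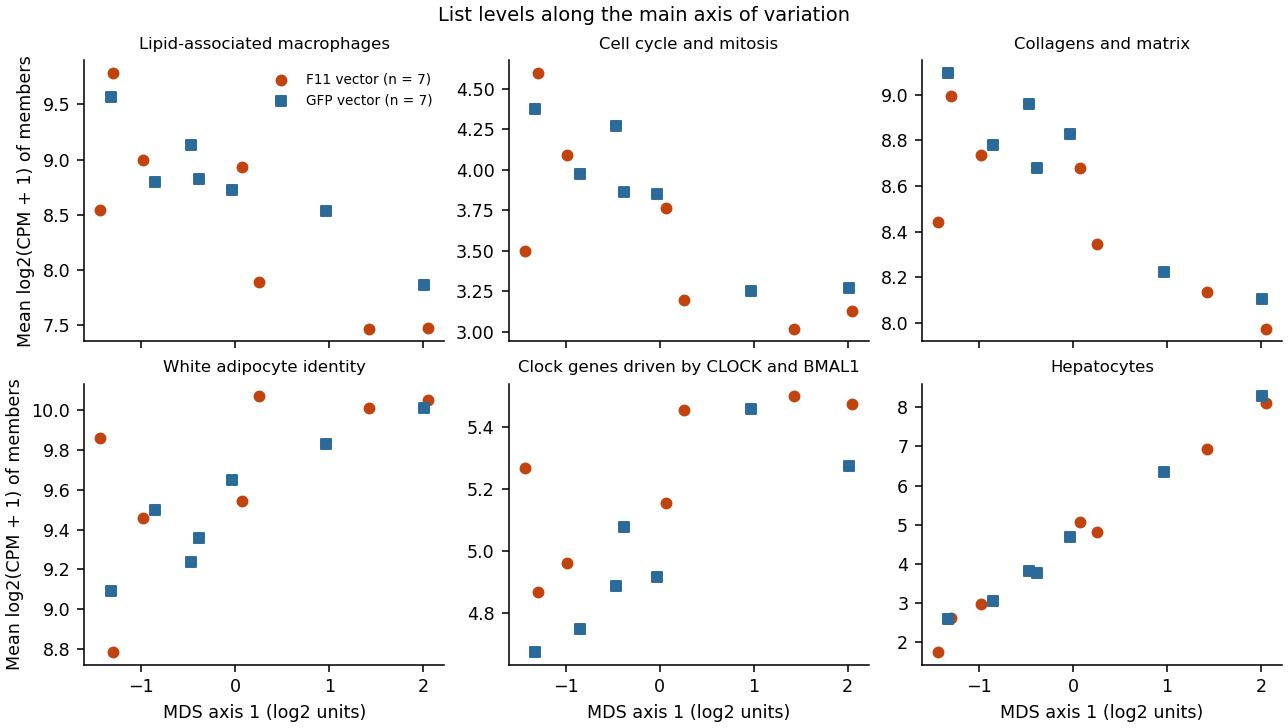
Mean log2(CPM + 1) of gene lists in each library against the first scaling axis, which holds 61.1% of the variance of the most variable genes. F11 points run from -1.44 to 2.05 and GFP points from -1.33 to 2.01 along it, so the vectors are mixed.

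Lists that followed this axis in most libraries had one-sided but weak values. This relation was read from the levels and was not tested. F11 library G-L141, the lowest on the axis, departed from it. Its lipid-associated macrophage level, as mean log2(CPM + 1), was 8.547, near the 8.532 of GFP library G-L137. Lipid-associated macrophage genes had 15 of 16 negative fold changes (median log2 -0.16), resident macrophage genes 16 of 18 (median -0.19), collagen and matrix genes 27 of 29 (median -0.14) and cell cycle genes 26 of 26 (median -0.18). Across these 4 lists 1 member, Lyve1, was lower and 0 were higher at an unadjusted p under 0.05. That is 5.56% of the resident macrophage list and 0% of each other list, against 2.70% of all genes lower and 3.39% higher. Members of such a list are not separate pieces of evidence, since they varied together between libraries. With the clock phase as a covariate their medians were 0.21, 0.13, 0.17 and 0.27, all with the sign turned round, while that of the histone lysine modifiers was 0.09. The clock phase score came from clock genes, which followed this axis in most libraries too, so the turned signs do not show the direction of a vector effect. Without GFP library G-L133, 9 of the 16 lipid-associated macrophage genes were positive (median 0.0088). Without F11 library G-L148, which had the highest lipid-associated macrophage and cell cycle levels, the lipid-associated macrophage median was -0.53 and the cell cycle median -0.44, with 1 and 3 members lower at an unadjusted p under 0.05.

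Clock genes also followed this axis in most libraries and had larger list medians. In F11 library G-L141, the lowest on the axis, the level of the genes driven by CLOCK and BMAL1 was 5.27. It was 5.275 in GFP library G-L136, near the top of the axis (mean log2(CPM + 1) of members). Genes driven by CLOCK and BMAL1, the activators of the circadian clock, were positive in 11 of 14 cases (median log2 0.27), and genes of the opposite phase were negative in 4 of 5 (median -0.39). Per3, a clock repressor, had 41.7, 60 and 83.2 CPM in F11 libraries, against 27.4, 38.2 and 67.8 CPM in GFP libraries (log2 0.61, SE 0.22, unadjusted p = 0.014, edgeR adjusted p = 0.815). Nfil3, a repressor in antiphase, averaged 4.02 ± 1.49 CPM in F11 and 6.41 ± 2.04 CPM in GFP libraries (log2 -0.68). Dbp, an output of the clock, averaged 50.7 ± 17.2 CPM in F11 and 35.9 ± 13.8 CPM in GFP libraries, and the ranges overlapped. At an unadjusted p under 0.05, 1 of the 14 was higher with all libraries, against 6 without GFP library G-L137 or F11 library G-L148, 5 without GFP library G-L136, 4 without F11 library G-L143 and 2 without F11 library G-L147. The 1 of 14 is 7.14%, against 3.39% of all genes, and the count over all genes was itself 783 without G-L137 and 901 without G-L148, against 517 with all libraries. The hour of collection is not given in the sources used here, and its part in these values was not tested.

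Genes of bone morphogenetic protein signalling, a pathway of fat cell commitment, were positive in 22 of 26 cases (median log2 0.08), and in 14 of 26 under the clock phase covariate. The direct targets Id1 and Id3 averaged 34.6 ± 14.2 and 72.4 ± 11.7 CPM in F11 libraries, against 27.9 ± 7.01 and 67.9 ± 7.58 CPM in GFP libraries.

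The vector contrast in fat was also set against that in heart, where 7 F11 and 6 GFP libraries were available. The difference between tissues passed edgeR's test for 9 of 16625 genes (0.0541%), 5 with a higher and 4 with a lower value in fat. Trib1 had log2 fold changes of -0.31 in fat and 0.48 in heart, a difference of -0.78 (SE 0.12, adjusted p = 0.0021). Baz2b had 0.28 in fat and -0.08 in heart, a difference of 0.37 (SE 0.07, adjusted p = 0.0336). Zfp395, Ypel2, Fam13c and Rbm7 had positive differences of 0.68, 0.61, 0.69 and 0.31, of which Ypel2 and Rbm7 had fold changes in fat of 0.05 each. Mid1ip1, Midn and Mn1 had negative differences of -0.64, -0.55 and -0.51. With all 16 adipose libraries 4 genes passed, and leaving out 1 adipose library gave 3 to 33, with 33 without F11 library G-L148. Setd5 and Cep250 did not pass this test (differences of 0.22 and 0.20, adjusted p = 0.12 and 0.26), so their contrast is not shown to differ between the tissues.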

How the data were processed

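Per the labels' protocols, RNA of white fat and heart came from the miRNeasy kit, the libraries from the Nugen Universal Plus mRNA kit and the reads from a NovaSeq. The deposited values are estimated counts per gene, made by the authors with kallisto 0.46 on GRCm38.p6, per the submitters' processing notes. Annotation release, summing to genes and strandedness were not given in the sources used here. Overlapping genes, antisense genes and close paralogs are therefore uncertain. Of 36558 gene IDs, 35935 matched a symbol in GENCODE M21, and 30.8% of the values were not whole. Of 30 labelled libraries 29 were in the table, and 1 GFP heart library was not analysed here. Totals of 16.76 to 26.33 (in units of 1000000) limit the precision of low genes, and limits at 0 cover counting error only. Libraries of a group differed by a chi-square per degree of freedom of at least 8.4, so none was treated as a repeat.

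Estimated counts were rounded and tested with edgeR 4.0.16 in R 4.3.3 (filterByExpr, TMM, robust quasi-likelihood fit, two-sided, Benjamini-Hochberg over all 15251 genes, threshold 0.05), on the 14 libraries alone. The common dispersion had a square root of 0.303, against 0.355 with all 16 adipose libraries and 0.105 in the 13 heart libraries. CPM are per 1000000 TMM-scaled counts. Each fold change is F11 over GFP. Single transcripts were compared by exact permutation (scipy 1.17.1). The tissue difference was an interaction contrast in a joint fit of fat and heart, with a shared dispersion per gene and no term for mice. Alternatives were other size factors, filters and covariates, DESeq2 1.42.0, limma 3.58.1 voom, a surrogate variable from sva 3.50.0, library sets and leaving out each library. The score covariates, clock phase among them, were made from gene levels in the same libraries, so they can take up part of a vector contrast. Exon length offsets, the F11 to Alb ratio and the tests of F12 and Klkb1 were added after seeing the data.

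Lists, 47 with 860 of 869 entries found, were described and not tested. The libraries and lists were chosen with earlier results of these data known. Named genes were F11, called genes or the 10 lowest p in each direction (ordinary symbol, mean of at least 1 CPM in 1 group, at least 6 of 7 F11 libraries on that side of the GFP median), the lowest p of each list with at least 5 tested members, the 6 lowest p of the tissue difference, and genes named by earlier results. The result of 1 gene named by this rule is not reported here. Other list members and the genes without overlap were named after their values were seen. Promoter windows of 250 bases before and 50 after the start are RefSeq's.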

Additional observations from a re-analysis of the deposited data

Results flagged for a closer look

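Several levels stood apart within a group of 7 libraries. The check covered 124 groups and marked 15, where chance marks about 1 in 20 groups. In F11 library G-L148 Apbb2 was at 82.0 CPM and Rbm7 at 66.5 CPM, each the highest F11 level by a wide gap. F11 library G-L144 had the highest Kmt2b level, 80.7 CPM. F11 library G-L145 had the highest F11 level of the epithelial keratin gene Krt8, 38.3 CPM. GFP library G-L139 had the highest GFP level of Ric1, 62.5 CPM, which lay just under the lowest F11 level. GFP library G-L137 had the lowest GFP levels of Ccdc25 (35.3 CPM), Acss2 (75.2 CPM) and Ldha (558 CPM). GFP library G-L138 had the highest levels of Ccdc187 (25.4 CPM), Hdc (12.4 CPM) and Myh6 (83.0 CPM with the scaling of the 14 libraries). GFP library G-L136 had the highest GFP levels of Hey1 (14.9 CPM) and Alb (3386 CPM). Gpx5 was highest in F11 library G-L143 at 12.9 CPM and, among GFP libraries, in G-L133 at 3.93 CPM. Ccdc187 had a log2 fold change of -3.56 beside medians of 0.47 CPM in F11 and 0.651 CPM in GFP libraries.

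The contrast differed between fat and heart for several named genes by edgeR's interaction test. The fold change in fat minus that in heart (log2) was -0.782 for Trib1, 0.366 for Baz2b, 0.615 for Ypel2, 0.684 for Zfp395, 0.694 for Fam13c and 0.309 for Rbm7, with adjusted p-values of 0.0021, 0.0336, 0.00192, 0.00192, 0.0304 and 0.0458 in that order.

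In the libraries left out, Myh6 reached 4126 CPM in G-L140 and Gpx5 reached 6003 CPM in G-L142.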

How the results depend on the processing

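The count of 0 called genes held under other size factors, filters and library sets, with 3 score covariates, with length offsets, at a threshold of 0.1, with limma voom and in all 14 fits that left out 1 library (0 to 0). It was 8 with DESeq2, 2 with 1 surrogate variable and 5 in one fit with heart, where fat and heart shared each gene's dispersion. The cause was not tested. The tissue difference called 4 genes with all 16 adipose libraries and 3 to 33 when 1 library was left out. The F11 transcript difference kept its direction and its side of the threshold in every alternative run, with 3.74 to 6.33 CPM when 1 library was left out.

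Signs turned for a few genes, none of them called. With the clock phase covariate the log2 fold changes were 0.18 for Lum, 0.11 for Plin2, -0.038 for mt-Nd5, 0.0173 for Ccne1, 0.0379 for Pmp22, -0.13 for Adipoq and -2.08 for Alb. With G-L142 put back they were 0.056 for Krt8 and 0.0192 for Pdia6, with G-L140 put back -0.0394 for mt-Nd5, and with all 16 libraries -0.0432 for mt-Nd5 and 0.0612 for Pdia6. Alb had -0.0377 with the hepatocyte covariate, -0.63 with the macrophage covariate, -0.15 with limma voom, -0.15 with the surrogate variable and -0.72 to 1.69 when 1 library was left out. B cell and T cell medians were 0.54 and 0.34 without GFP library G-L134. The unadjusted counts were 1048 higher and 847 lower with limma voom and 383 and 362 with length offsets. Of calls at that level 69.2% were higher with G-L142 put back and 45.4% with G-L140 put back, against 55.7%. The vectors were given to different mice, so the vector contrast holds no pairs. The labels link no fat library to a heart library of the same mouse, so the tissue difference was not paired either.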

Other observations

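Several other gene groups had medians near 0 or no member at an unadjusted p under 0.05. Of 33 nuclear genes of oxidative phosphorylation 18 had positive fold changes, with a median log2 of 0.005 and 0 at an unadjusted p under 0.05. The 40 cytosolic ribosomal protein genes had 34 negative fold changes with a median of -0.03, and 1 of them, Rplp0, was lower at that level. Fibroblast and preadipocyte genes were positive in 10 of 18 cases. Of 16 genes of the hypoxia response 8 were positive (median log2 -0.04), and 2 (12.5%), Ldha and Ankrd37, were lower at an unadjusted p under 0.05, against 2.70% of all genes. Ldha, the lactate dehydrogenase subunit, averaged 607 ± 29.6 CPM in F11 and 683 ± 61.0 CPM in GFP libraries (log2 -0.17, edgeR adjusted p = 0.815). Of the 13 transcripts of the mitochondrial genome 11 were positive (median log2 0.14), while all 13 were negative with all 16 adipose libraries or the clock phase covariate, and mt-Nd5, a subunit of complex I, ranged from 3351 to 5867 CPM in F11 and from 3471 to 5429 CPM in GFP libraries.

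Inflammatory genes were negative in 13 of 20 cases (median log2 -0.13), with 0 at an unadjusted p under 0.05, and positive in 15 of 20 with the clock phase as a covariate. Saa3, an acute phase protein that fat makes in inflammation, had 12.9, 28.3 and 53.8 CPM in F11 libraries, against 14.9, 58.7 and 75.8 CPM in GFP libraries (log2 -0.75, SE 0.41, edgeR adjusted p = 0.846). All 7 F11 libraries lay below the GFP median, and the ranges overlapped. Irs1, the insulin receptor substrate, averaged 23.6 ± 7.5 CPM in F11 and 18.5 ± 2.88 CPM in GFP libraries (log2 0.35, adjusted p = 0.837 by edgeR), and 4 F11 libraries lay above every GFP library. In heart its log2 fold change was -0.57 (edgeR adjusted p = 0.000346), and the difference between the tissues was 0.93 (SE 0.21, adjusted p = 0.084).

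Immune cell content differed between libraries within a group. The 15 B and plasma cell genes summed to 1691 CPM in GFP library G-L134, the highest, with 529.5 to 1071 CPM in F11 libraries and 606.3 to 1033 CPM in the other GFP libraries. Ighm, the heavy chain of immunoglobulin M, averaged 644 ± 188 CPM in F11 and 804 ± 295 CPM in GFP libraries.

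In some lists the gene with the lowest p was not under 0.05. Among these were Gpd1 of adipocyte identity (log2 -0.28, SE 0.17), Col5a3 of the matrix (-0.17, SE 0.09), Trac of T cells (-0.66, SE 0.33), Tgfbr3 of the TGF-beta pathway (0.14, SE 0.08), Atp5g1 of oxidative phosphorylation (-0.12, SE 0.07) and Zfp36 of the immediate early genes (0.17, SE 0.10), with edgeR adjusted p-values of 0.832 to 0.846 for the genes given here.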
